A study of Mus musculus with 4 samples.

Results

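The 10 claudins examined here are tight junction proteins of kidney epithelium: Cldn2 and Cldn10 of the proximal tubule and thick limb, Cldn16 and Cldn19 of the thick limb, Cldn3, Cldn4, Cldn7 and Cldn8 of the distal nephron and collecting duct, Cldn6 of the newborn kidney, and Cldn1 of the capsule that surrounds the glomerulus. They were taken as every non-control probe whose accession maps to these symbols in RefSeq, and 12 probes did so, for all 10 genes, of 16358 genes with a symbol on the array. Cldn1 and Cldn19 had 2 probes each and the other claudins 1. Of the 10, 9 had a probe well above background and entered the test with 15893 genes in all, while Cldn1 did not.

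Claudins span the membrane at the tight junction, where their outer loops either seal the space between neighbouring epithelial cells or line narrow pores through it. The set of claudins in a nephron segment decides which ions pass between its cells and whether water follows. The proximal tubule is leaky, the thick ascending limb lets calcium and magnesium through, and the collecting duct is tight, with a regulated chloride pathway.

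The study asked how loss of the (pro)renin receptor changes gene expression in newborn collecting duct cells. The receptor is the product of Atp6ap2, PRR in the labels, which is also needed for assembly of the vacuolar proton pump. Knockout cells came from HoxB7CreEGFP+ mice with both PRR alleles floxed (PRR flox/flox), and wild-type cells from CreEGFP+ mice with intact alleles (PRR+/+), so the controls carry the transgene too. The HoxB7 promoter is active in the ureteric bud and its derivatives, which limits Cre and EGFP to that lineage, and EGFP+ cells were isolated by flow sorting on postnatal day 1. RNA was pooled, and 0.5 µg entered each labelling reaction of 4 Agilent 2-colour arrays on 1 slide. Knockout RNA was labelled with Cy5 on KO_vs_WT replicates 1 and 2, next to Cy3-labelled wild-type pool 1 and pool 2. WT_self replicates 1 and 2 held only pool 1 or only pool 2, in both dyes. The labels do not say whether the knockout arrays hold the same pool or separate animals, so p-values measure only the spread between arrays, which may be technical.

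The labels are at odds with each other. These groups follow the source named for each channel, whereas the array titles call the KO_vs_WT arrays wild type and the self arrays knockout, and by the descriptions pools 1 and 2 of the self arrays would be swapped. If the titles held, each direction between knockout and wild type would turn. Of 41174 probes, 22713 and 20796 passed the flag for signal well above background in Cy5 of the knockout arrays, against 20028 and 18424 for pools 1 and 2. In Cy3 only 28 probes passed on KO_vs_WT replicate 1, against 18574 for pool 2 on KO_vs_WT replicate 2, so wild-type pool 1 beside knockout could not be read and 7 channels were used. The median signal of 320 spike-in control spots was 5.6 to 57.6 in the 3 channels of pool 2 and 893 to 4606 in the other 4. Atp6ap2 itself, whose probe was not placed relative to the floxed part, had a log2 Cy5 level of 8.08 and 7.72 in knockout and 8.37 and 8.51 in wild type, with a difference of -0.54 ± 0.16 (SE, n = 2 arrays per genotype; limma adjusted p = 0.8).

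The 250 bases before the annotated start of 5 claudins are printed because these genes differed most between the wild-type pools (Cldn2, Cldn10, Cldn16 and Cldn4) or had the largest positive difference in knockout (Cldn7). Sequences are from RefSeq on GRCm38.p6, written 5′ to 3′ on the strand of the gene, and end at the base before the start. Capitals mark matches on either strand to TATAAA (the TATA box), GTTAAT (core of HNF1 sites), AACCGG (core of grainyhead sites, contained in the full site AACCGGTT), CAGGTG (the E-box bound by Snail) and GGGCGG (the box of Sp and Klf factors). A match names letters in this window and no binding.
Cldn2 (chrX:139800558-139800807, plus strand): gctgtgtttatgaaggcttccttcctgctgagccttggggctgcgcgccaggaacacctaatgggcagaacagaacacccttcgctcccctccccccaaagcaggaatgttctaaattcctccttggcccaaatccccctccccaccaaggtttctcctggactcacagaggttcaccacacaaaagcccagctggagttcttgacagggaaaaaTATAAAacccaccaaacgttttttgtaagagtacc
Cldn10, upstream start (chr14:118787621-118787870, plus strand): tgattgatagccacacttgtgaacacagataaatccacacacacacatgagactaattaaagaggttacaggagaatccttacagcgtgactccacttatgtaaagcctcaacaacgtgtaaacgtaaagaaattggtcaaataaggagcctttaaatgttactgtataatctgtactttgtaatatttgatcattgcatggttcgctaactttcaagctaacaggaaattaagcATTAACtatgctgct
Cldn10, downstream start (chr14:118854700-118854949, plus strand): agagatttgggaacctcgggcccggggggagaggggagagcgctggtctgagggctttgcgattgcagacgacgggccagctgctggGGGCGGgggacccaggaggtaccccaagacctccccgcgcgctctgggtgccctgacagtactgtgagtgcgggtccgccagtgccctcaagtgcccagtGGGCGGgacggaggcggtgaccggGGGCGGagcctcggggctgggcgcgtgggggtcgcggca
Cldn16 (chr16:26462885-26463134, plus strand): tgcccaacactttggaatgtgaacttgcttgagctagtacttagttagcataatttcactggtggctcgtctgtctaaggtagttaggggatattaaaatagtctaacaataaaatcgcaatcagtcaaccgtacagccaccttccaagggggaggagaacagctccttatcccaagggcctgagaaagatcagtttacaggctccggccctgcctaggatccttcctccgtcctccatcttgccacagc
Cldn4 (chr5:134946935-134947184, minus strand): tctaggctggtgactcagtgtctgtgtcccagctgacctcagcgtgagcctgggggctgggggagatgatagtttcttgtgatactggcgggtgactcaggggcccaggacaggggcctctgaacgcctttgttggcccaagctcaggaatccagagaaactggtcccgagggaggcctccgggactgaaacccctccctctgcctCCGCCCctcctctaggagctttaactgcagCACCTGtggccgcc
Cldn7, upstream start (chr11:69964529-69964778, plus strand): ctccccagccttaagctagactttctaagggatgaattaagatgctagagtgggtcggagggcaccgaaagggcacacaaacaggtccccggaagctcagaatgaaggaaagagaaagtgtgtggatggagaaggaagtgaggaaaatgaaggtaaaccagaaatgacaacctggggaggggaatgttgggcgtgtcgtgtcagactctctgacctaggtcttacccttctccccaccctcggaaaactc
Cldn7, downstream start (chr11:69965171-69965420, plus strand): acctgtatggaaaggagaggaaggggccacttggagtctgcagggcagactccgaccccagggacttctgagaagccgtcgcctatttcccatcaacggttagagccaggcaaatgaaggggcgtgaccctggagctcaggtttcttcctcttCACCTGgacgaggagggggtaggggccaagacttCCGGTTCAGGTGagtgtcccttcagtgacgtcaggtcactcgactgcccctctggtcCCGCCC

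Of these sequences, that of Cldn2 held a TATAAA 35 to 30 bases before the start, a match found in 12.3% of 32536 mouse promoters of this length. The upstream start of Cldn10 held a GTTAAT on the opposite strand 15 to 10 bases before it (6.47% of promoters), and its downstream start held 3 copies of GGGCGG (33% of promoters). Cldn4 had 1 CAGGTG (17.3% of promoters) and 1 GGGCGG, both on the opposite strand. The downstream start of Cldn7 had 2 CAGGTG, 1 AACCGG next to the nearer of them without overlap (5.66% of promoters), and 1 GGGCGG. No match lay before Cldn16 or the upstream start of Cldn7, and AACCGGTT, found in 0.117% of promoters, was in none of the sequences shown. No motif was therefore common to Cldn2, Cldn10, Cldn16 and Cldn4. Cldn8 was not in the promoter table.

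No claudin passed the test between knockout and wild type. At an adjusted p under 0.05 in limma, 0 of 9 tested claudins were higher and 0 lower, where 0% of 15893 genes were called in either direction, and 669 genes had an unadjusted p under 0.05. Cldn7 was the claudin with the smallest unadjusted p and the only one under 0.05, where 3.15% of genes lay on the higher side and 1.06% on the lower. The claudins separated instead by wild-type pool. In knockout all 9 lay within 2-fold of pool 1, between -0.27 for Cldn19 and 0.27 for Cldn7 on the log2 scale, whereas Cldn2, Cldn10, Cldn4 and Cldn16 were at least 2-fold lower in knockout than in pool 2. In bulk RNA of sorted cells, fewer cells of a type and less RNA per cell cannot be told apart.

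Cldn2 (chrX:139800808-139811386) encodes the pore for sodium and water between proximal tubule cells. Its log2 Cy5 level was 7.0 and 6.84 on the knockout arrays, against 7.14 in wild-type pool 1 and 9.27 in pool 2. In Cy5 knockout lay below both pools, close to pool 1 and far from pool 2. The difference over all 4 arrays was -1.29 ± 0.70 (SE, n = 2 arrays per genotype; limma adjusted p = 0.8), which is -0.22 against pool 1 and -2.35 against pool 2, a level 5.11-fold lower in knockout. On KO_vs_WT replicate 2, the 1 array that read knockout and pool 2 together, the log2 ratio of knockout over pool 2 was -2.56. Scaled over the 7 channels, Cldn2 read 6.71 to 6.82 in the 2 knockout channels, 6.74 to 6.93 in the 2 channels of pool 1 and 8.76 to 8.93 in the 3 of pool 2. The pool 2 channels on separate arrays and in both dyes lay together, above every other channel.

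Cldn10 (chr14:118787871-118874525) has isoforms from separate starts, an anion pore of the proximal tubule and a cation pore of the thick limb, and which of them the probe reads was not analysed here. Its log2 Cy5 level was 7.90 and 7.70 in knockout, against 7.77 in pool 1 and 9.78 in pool 2. The knockout arrays fell on either side of pool 1, so the genotypes overlapped. The difference was -0.98 ± 0.67 (SE; limma adjusted p = 0.8), with 0.03 against pool 1, -1.99 against pool 2 and -2.10 on the shared array. Over the 7 channels Cldn10 read 7.37 to 7.53 in knockout, 7.42 to 7.52 in pool 1 and 9.24 to 9.32 in pool 2.

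Cldn16 (chr16:26463135-26482765) and Cldn19 (chr4:119255441-119262438) form the calcium and magnesium pathway of the thick ascending limb, and mutations of either in humans cause renal magnesium loss. Cldn16 had a log2 Cy5 level of 6.73 and 6.70 in knockout, against 6.74 in pool 1 and 7.93 in pool 2. Its difference was -0.62 ± 0.40 (SE; limma adjusted p = 0.8), with -0.03 against pool 1, -1.21 against pool 2 and -1.13 on the shared array. Knockout and pool 1 could not be separated for Cldn16, and pool 2 stood alone. Cldn19 had 8.13 and 7.85 in knockout, against 8.26 in pool 1 and 8.75 in pool 2, a difference of -0.51 ± 0.21 (SE; limma adjusted p = 0.8). Against pool 1 it was -0.27, against pool 2 -0.76 and on the shared array -0.96. Both knockout values of Cldn19 lay below both pools. Its knockout arrays were 0.28 apart, the widest gap between them of any claudin, and as wide as the difference from pool 1. The other Cldn19 probe had the same sign, at -0.35 ± 0.15 (SE), but did not set pool 2 apart, with 7.53 and 7.23 in knockout, 7.79 in pool 1 and 7.67 in pool 2.

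Cldn4 (chr5:134945123-134946934) and Cldn8 (chr16:88560826-88563183) act together in cultured mouse collecting duct cells as a chloride pathway, in which Cldn8 brings Cldn4 to the junction. Cldn4 had a log2 Cy5 level of 7.53 and 7.43 in knockout, against 7.36 in pool 1 and 8.86 in pool 2. Knockout thus stood slightly above pool 1 and well below pool 2, and the genotypes overlapped. The difference was -0.63 ± 0.50 (SE; limma adjusted p = 0.801), with 0.12 against pool 1, -1.38 against pool 2 and -1.42 on the shared array.

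Cldn8 ran opposite to Cldn4 between the pools. Its log2 Cy5 level was 10.95 and 10.96 in knockout, against 11.06 in pool 1 and 10.25 in pool 2. The difference was 0.30 ± 0.28 (SE; limma adjusted p = 0.813), with -0.10 against pool 1, 0.71 against pool 2 and 0.74 on the shared array. Over the 7 channels Cldn8 read 10.39 on both knockout arrays, 10.27 to 10.49 in pool 1 and 9.65 to 9.70 in pool 2. Knockout lay inside the range of pool 1 and above all 3 pool 2 channels.

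Cldn7 (chr11:69964779-69967886), a claudin of the distal nephron and collecting duct whose loss in mice causes salt wasting, was higher in knockout than in either pool on every array. Its log2 Cy5 level was 12.12 and 12.25 in knockout, against 11.91 in pool 1 and 11.67 in pool 2. The difference was 0.39 ± 0.14 (SE; limma unadjusted p = 0.0402, adjusted p = 0.8), with 0.27 against pool 1, 0.51 against pool 2 and 0.57 on the shared array. Over the 7 channels it read 11.55 to 11.68 in knockout, 11.29 to 11.34 in pool 1 and 11.07 to 11.14 in pool 2, so that no channels of these sources overlapped. The gap to pool 1, 1.21-fold, is small beside the 2-fold rule of size.

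Cldn3 (chr5:134986214-134987476), a sealing claudin of the distal nephron that lies 39.3 kb from Cldn4, differed least between the pools of the 9 tested claudins. Its log2 Cy5 level was 10.47 and 10.56 in knockout, against 10.31 in pool 1 and 10.45 in pool 2. Both knockout values were above both pools, with almost no gap between KO_vs_WT replicate 1 and pool 2. The difference was 0.14 ± 0.12 (SE; limma adjusted p = 0.808), and on the shared array knockout was not higher, at -0.07. Cldn4, its neighbour, did not share this pattern.

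Cldn6 (chr17:23679348-23682446), an embryonic epithelial claudin that the mouse kidney loses after birth, had a log2 Cy5 level of 8.25 and 8.19 in knockout, against 8.34 in pool 1 and 8.73 in pool 2. Its difference was -0.32 ± 0.17 (SE; limma adjusted p = 0.8), with -0.12 against pool 1, -0.51 against pool 2 and -0.66 on the shared array. In Cy5 both knockout arrays were below both pools, as for Cldn2, Cldn16 and Cldn19. For Cldn16 the gap to pool 1 was marginal, with 6.73 and 6.70 against 6.74. With arrays centred on their median, a scaling under which the median of all genes moved to 0.33, Cldn6 stood at 0.16, which is -0.17 relative to that median. Against pool 2 under that scaling the median of all genes was 0.59, and Cldn6 and Cldn19, at 0.39 and 0.13, stood at -0.20 and -0.46 relative to it. Cldn1 (chr16:26356645-26371839), which lies 91.3 kb from Cldn16 and marks the parietal cells of the glomerular capsule, was not well above background in any of the 7 channels by either probe.

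**Figure D1:**
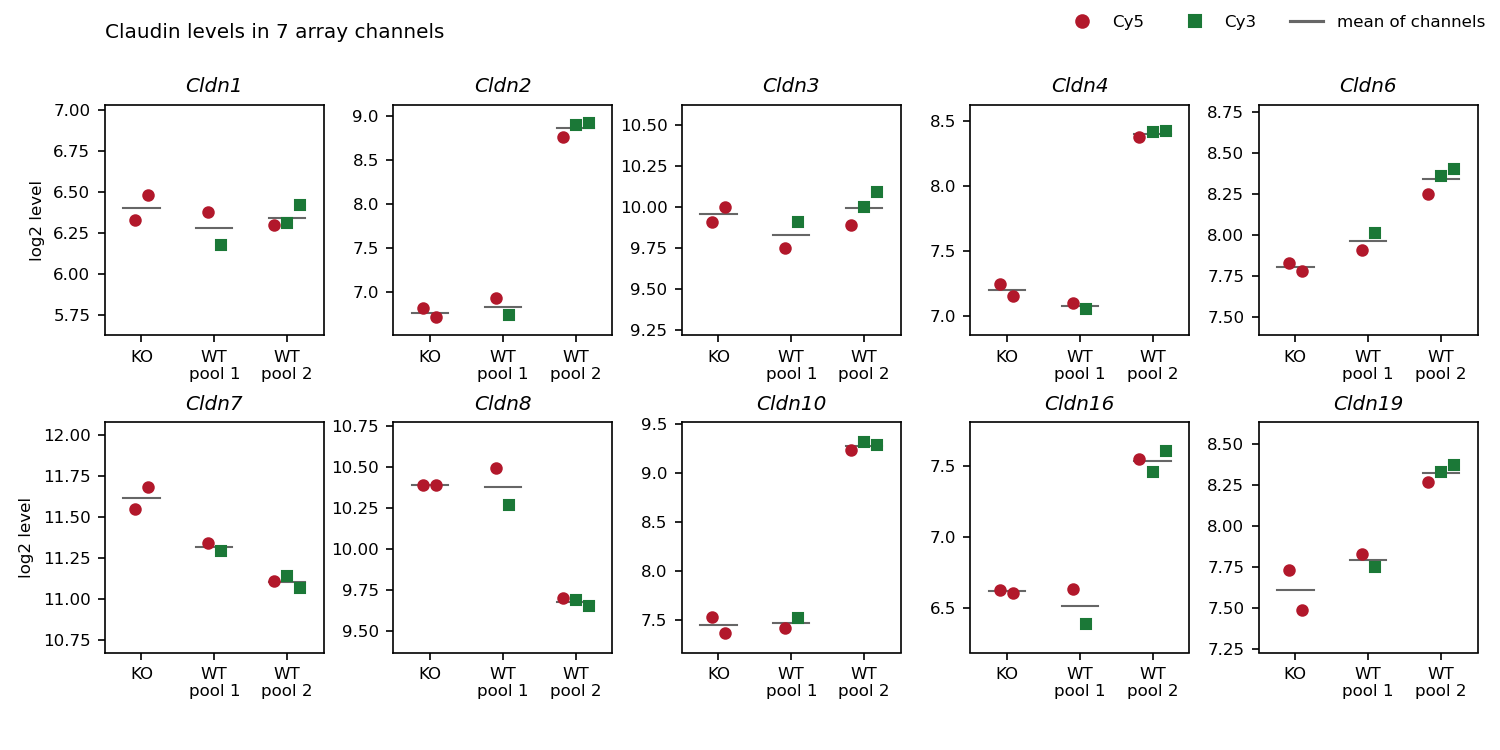
Log2 level of each claudin over the 7 array channels with signal (y axis, own scale per panel) in knockout, wild-type pool 1 and wild-type pool 2 (x axis); circles are Cy5, squares Cy3, lines the mean of the channels. Cldn2 reads 6.71 to 6.82 in knockout and 8.76 to 8.93 in pool 2, Cldn7 11.55 to 11.68 and 11.07 to 11.14, and Cldn1 is not well above background in any channel.

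By overlap in Cy5, both knockout arrays lay above both wild-type arrays for 2 of 9 claudins, Cldn3 and Cldn7 (22.7% of all genes). They lay below both for 4, Cldn2, Cldn6, Cldn16 and Cldn19, where 17% of genes did. Against pool 1 alone 3 claudins stood above it on both knockout arrays (39.1% of genes) and 5 below it (37.9%), so the split was near that of all genes. Against pool 2 alone 3 stood above (49.3% of genes) and 6 below (36.5%). The median claudin difference was -0.03 against pool 1, with a median of 0.00 over all genes, and -0.76 against pool 2, with 0.05 over all genes.

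By size, 0 of 9 claudins were at least 2-fold higher or lower in knockout than pool 1, where 0.239% and 0.0881% of genes were. Against pool 2, 0 claudins were at least 2-fold higher (1.69% of genes) and 4 were at least 2-fold lower (2.32%), Cldn2, Cldn4, Cldn10 and Cldn16. Under cyclic loess 3 were (2.13% of genes), with Cldn16 at -0.89, under the processed signal 5 (4.89%), with Cldn19 added, and under median centring 2 (0.988%), Cldn2 and Cldn10. The shared array gave these 4 genes again, with 0 higher (1.48% of genes) and 4 lower (2.1%). These comparisons use the same knockout RNA and the same pool, and with 1 array of each pool they have no test. The size of the pool 2 difference was 5.11-fold for Cldn2, 3.96-fold for Cldn10, 2.61-fold for Cldn4 and 2.32-fold for Cldn16 in Cy5, lower in knockout. With the processed signal the log2 differences were -3.49, -2.16, -1.82 and -2.73 for these genes in turn. Their size and order thus depend on the background correction.

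**Figure D2:**
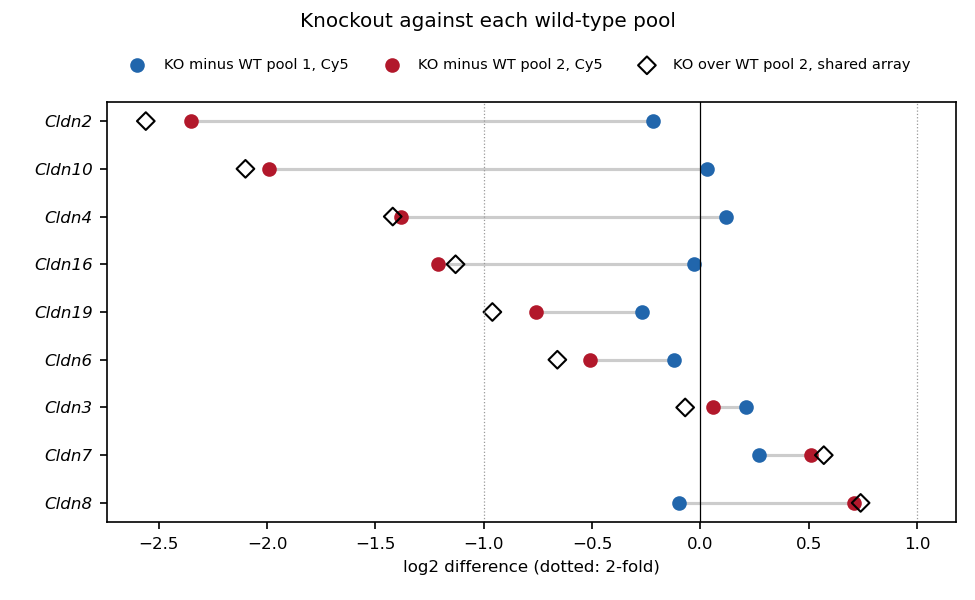
Log2 difference of knockout from wild-type pool 1 in Cy5 (blue), from pool 2 in Cy5 (red) and from pool 2 on the array they shared (open diamonds), for the 9 tested claudins; dotted lines mark 2-fold. All 9 lie between -0.27 and 0.27 against pool 1, and 4 lie past 2-fold below pool 2 by both measures.

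The wild-type pools differed from each other more than the knockout arrays did. Pool 2 minus pool 1 in Cy5 was 2.13 for Cldn2, 2.02 for Cldn10, 1.51 for Cldn4 and 1.19 for Cldn16, so 4 of 9 claudins were at least 2-fold higher in pool 2, where 2.37% of genes were, and 0 were at least 2-fold lower (1.48%). In Cy3, labelled separately, the differences were 1.65, 1.57, 1.03 and 0.62 for the same genes in that order, which left 3 at least 2-fold higher in pool 2 (1.41% of genes) and 0 lower (0.598%). In Cy3 of pool 1 Cldn2 and Cldn16 were not well above background. On this quantile normalized scale these are therefore bounds, of at least 3.15-fold and at least 1.53-fold higher in pool 2. Under median centring the log2 differences in Cy3 were smaller, at 1.25 for Cldn2 and 0.36 for Cldn16, with an all-gene median of -0.17. Cldn19 was 0.49 and 0.48 higher in pool 2 in Cy5 and Cy3, and Cldn6 0.39 and 0.29, but under median centring Cldn19 and Cldn6 were lower in pool 2 in Cy5, at -0.34 and -0.45. Cldn8 was lower in pool 2, at -0.81 in Cy5 and -0.55 in Cy3, and so was Cldn7, at -0.24 and -0.14. Each of the 9 claudins had the same sign in both dyes.

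Over all genes the pool difference had an SD of 0.47, with 613 genes (3.86%) at least 2-fold apart. The knockout arrays differed with an SD of 0.15, with 17 genes (0.107%) at least 2-fold apart, and no claudin moved between them by more than 0.28. The median of the claudin differences between pools was 0.49 in Cy5 and 0.48 in Cy3, where the medians over all genes were -0.04 and -0.02. With arrays centred on their median, the all-gene median moved to -0.54 in Cy5 and -0.17 in Cy3. Relative to that median Cldn2, Cldn10, Cldn4 and Cldn16 were 1.89, 1.71, 1.24 and 1.10 higher in pool 2 in Cy5, Cldn8 was -1.06, and Cldn3 turned to -0.14.

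The test over 4 arrays averages 2 unlike pools, so each array was also left out in turn. Without WT_self replicate 1, which holds pool 1, limma called 2 of 9 claudins higher, Cldn7 and Cldn8 (15.8% of 16547 genes), and 6 lower, Cldn2, Cldn4, Cldn6, Cldn10, Cldn16 and Cldn19 (11.6%). The smallest adjusted p was that of Cldn2 (7.62e-05) and the largest of these that of Cldn7 (0.0166), in a fit that takes the spread from the knockout arrays alone and assumes that the lone pool 2 array varies like them. Over all alternatives the adjusted p of Cldn2 ranged from 7.62e-05 to 1 and that of Cldn7 from 0.0166 to 1. Without WT_self replicate 2, which holds pool 2, limma called 0 genes, 2376 of 16655 having an unadjusted p under 0.05, and Cldn4, Cldn8 and Cldn10 changed sign, to 0.12, -0.10 and 0.03.

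**Figure D3:**
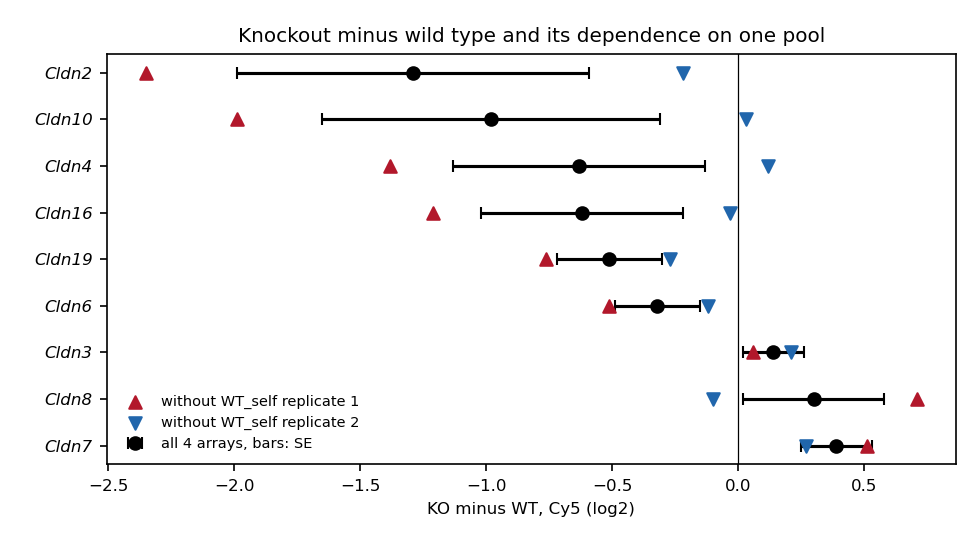
Log2 difference of knockout minus wild type in Cy5 for the 9 tested claudins (black points, bars: SE from limma, n = 2 arrays per genotype), and the same without WT_self replicate 1 (red triangles) or without WT_self replicate 2 (blue triangles). Cldn2 stands at -1.29 over all arrays, -2.35 without pool 1 and -0.22 without pool 2, while Cldn7 stays between 0.27 and 0.51.

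Among themselves some claudins had similar profiles over the 7 channels and others lay far apart. Likeness was measured as the Euclidean distance between log2 levels after each gene was centred on its own mean. The closest pairs were Cldn6 with Cldn19 (0.298), Cldn2 with Cldn10 (0.383) and Cldn4 with Cldn16 (0.43), and the farthest was Cldn2 with Cldn8 (3.62). Cldn3 and Cldn4, neighbours on chromosome 5, were 1.54 apart. The channels share RNA pools and arrays, so these distances describe this series and carry no test.

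Of 10988 genes with a symbol, the profile nearest to Cldn2 was that of Aadac (0.148), then Slc3a1 (0.212). Nearest to Cldn10 were Slc23a1 (0.132) and Qprt (0.193), to Cldn16 Rgl1 (0.126) and Btd (0.141), and to Cldn4 H2-DMb1 (0.128) and Gss (0.154). Each of these 8 genes was higher in the pool 2 channels than in all others. Aadac, for example, read 6.56 to 6.57 in knockout, 6.59 to 6.81 in pool 1 and 8.70 to 8.79 in pool 2. Nearest to Cldn19 were Chpt1 (0.133) and Slc12a3 (0.139), and to Cldn6 Cysrt1 (0.057) and Slc13a1 (0.0714). Nearest to Cldn7 were Nol4l (0.054) and Pgk1 (0.0961), to Cldn8 Mal2 (0.126) and Mbnl2 (0.127), and to Cldn3 Zfp940 (0.0698) and Vmn1r66 (0.074). Slc13a1 was well above background in the 3 pool 2 channels and in no other. Vmn1r66 was above it in 1 knockout and 0 pool 1 channels, and Cysrt1 in 1 knockout and 1 pool 1 channel, of 2 each. The small distances of Slc13a1, Vmn1r66 and Cysrt1 to Cldn6 and Cldn3 thus compare levels near background. Zfp940, Slc3a1 and Rgl1 were above background in both knockout channels but in only 1 of the 2 pool 1 channels. Zfp940 read no more than 6.64 to 6.98 over the 7 channels.

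Other genes of the tight junction were also measured. Of 13 further claudins listed, 10 were on the array and 7 were tested, 0 of which passed limma in either direction. Their median was 0.04 against pool 1 and -0.18 against pool 2, and 0 of 7 were 2-fold apart in either comparison. Cldn5, the claudin of endothelium, had the smallest p of them, with 7.62 and 7.11 in knockout, 7.99 in pool 1 and 7.70 in pool 2 (-0.48 ± 0.22, SE; limma adjusted p = 0.8). Cldn11 was at 0.26, Cldn15 at 0.29 and Cldn12 at -0.20. Cldn13, Cldn14 and Cldn17 were not well above background in any channel.

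Of 21 listed junction partners, which scaffold claudins or seal cell corners, 19 were tested, 0 passed limma and 0 were 2-fold apart in any comparison. Their median was 0.01 against pool 1, 0.11 against pool 2 and -0.11 for pool 2 minus pool 1 in Cy5. The adhesion molecule gene Jam3 had the smallest p, with 7.20 and 7.05 in knockout, 7.54 in pool 1 and 7.47 in pool 2 (-0.38 ± 0.12, SE; limma unadjusted p = 0.0266, adjusted p = 0.8). The scaffold gene Tjp3 was at 0.31, the adhesion molecule gene F11r at 0.25 and Lsr, which encodes the tricellular junction protein angulin-1, at 0.31.

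Of 15 listed regulators of claudins, 12 were tested and 0 passed limma, with a median of 0.08 against pool 1 and 0.09 against pool 2. The membrane protease gene St14 was at 0.42. Among the WNK kinases, which phosphorylate claudins in cultured cells, Wnk4 was at 0.25 and Wnk1 at -0.36, each with a limma adjusted p of 0.8.

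Most tested markers of the proximal tubule, thick limb and distal tubule varied with Cldn2, Cldn10, Cldn16 and Cldn4. All 9 tested proximal tubule markers, of 16 listed, were at least 2-fold lower in knockout than in pool 2 (2.32% of all genes). Against pool 1, 2 of 9 were (0.0881%). The medians were -3.03 and -0.43. Their summed Cy5 level on the linear scale was 3129 and 2180 in knockout, against 4350 in pool 1 and 32597 in pool 2. Slc34a1, the phosphate transporter of this segment, had a log2 level of 8.41 and 7.76 in knockout, 9.10 in pool 1 and 12.29 in pool 2. Of the other proximal markers, Slc13a1 and Slc13a3 were well above background in all 3 pool 2 channels and in no knockout or pool 1 channel. Over the whole array 100 of 16358 genes had at least 1 probe above background in both dyes of pool 2 on its self array and in no knockout or pool 1 channel. Other probes of these genes were not considered in that count.

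Of 12 thick limb and distal tubule markers 8 were tested. Of the 8, 4 were at least 2-fold lower in knockout than pool 2 (2.32% of all genes) and 0 than pool 1 (0.0881%). The medians were -1.14 and -0.23. Their summed level was 6424 and 4967 in knockout, against 8428 in pool 1 and 14538 in pool 2. Umod, the defining gene of the thick limb, had 9.64 and 9.57 in knockout, 9.97 in pool 1 and 12.06 in pool 2. In Cy5, 7 of the 8 were higher in pool 2 than in pool 1, and Calb1 was lower, at -0.45. The median of that difference over all genes was -0.04. Urothelial markers, 9 of 9 tested, had medians of -0.36 against pool 1 and -1.47 against pool 2. Their summed levels were 3686 and 3206 in knockout, 5728 in pool 1 and 9701 in pool 2. Of these 9, 6 were higher in pool 2 than in pool 1 in Cy5. Krt5, Krt14 and Trp63 were lower there, at -1.11, -0.55 and -0.29. The share of all genes higher in pool 2 by sign was not counted. The part of all these markers in the claudin differences, and that of the low spike-in signal of pool 2, was not tested.

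Markers of the sorted lineage were not all higher in knockout. Of the 11 principal cell markers 8 were higher in knockout than pool 1 and 9 than pool 2, whatever the size. Their medians were 0.34 and 0.67, where the medians over all genes were 0.00 and 0.05. The share of all genes higher by sign was not counted, but with all-gene medians this near 0 many genes of any kind are. The summed levels of the principal cell markers were 24891 and 27306 in knockout, 20559 in pool 1 and 15883 in pool 2. Aqp2, the water channel that defines principal cells, had 12.34 and 12.57 in knockout, 11.93 in pool 1 and 11.50 in pool 2, so the labelled cell type was present in all sources. Of the 11 markers, 6 had a limma unadjusted p under 0.05 on the higher side, against 3.15% of all genes. They were Aqp2 (0.74), Scnn1g (0.66), Fxyd4 (0.64), Scnn1b (0.57), Aqp3 (0.42) and Scnn1a (0.41), as knockout minus wild type. Each of these 6 lay above both pools on both knockout arrays (22.7% of all genes), and 0 passed after adjustment. The water channel gene Aqp4 and the vasopressin receptor gene Avpr2 were lower than in both pools, at -0.12 and -0.21 for knockout minus wild type. Hsd11b2, which encodes an enzyme that inactivates glucocorticoids, was at 0.10. Of 14 tested ureteric bud markers, of 15 listed, 6 were higher in knockout than pool 1 and 9 than pool 2. Their medians were 0.00 and 0.15, near those of all genes. Both knockout arrays lay above both pools for 5 of these 14 (22.7% of all genes) and below both for 5 (17%). Among the lower were the transcription factor genes Lhx1 at -0.70, Etv4 at -0.61 and Etv5 at -0.47, and the GDNF receptor gene Gfra1 at -0.66. Among the higher were Krt19 at 0.49 and Cdh1 at 0.20.

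Stromal markers other than Meis1 (0.05) and the 2 tested erythroid markers, like Cldn8, were lower in pool 2 than in pool 1 in Cy5. So were all but 2 of the 11 principal cell markers (median -0.38) and all but 2 of the 8 intercalated cell markers (median -0.35). The median over all genes was -0.04. The 8 tested stromal markers had a median of -0.27 for knockout minus pool 1, 0.42 for knockout minus pool 2 and -0.71 for pool 2 minus pool 1 in Cy5, with summed levels of 4586 and 3856 in knockout, 5457 in pool 1 and 3097 in pool 2. The 2 tested erythroid markers, Hba-a1 and Alas2, had medians of -0.39, 0.82 and -1.21 in these comparisons, with summed levels of 9429 and 7119 in knockout, 10826 in pool 1 and 3899 in pool 2. The part of any of these marker lists in the levels of Cldn7 and Cldn8 was not tested, and 0 members of any list passed limma over all genes.

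**Figure D4:**
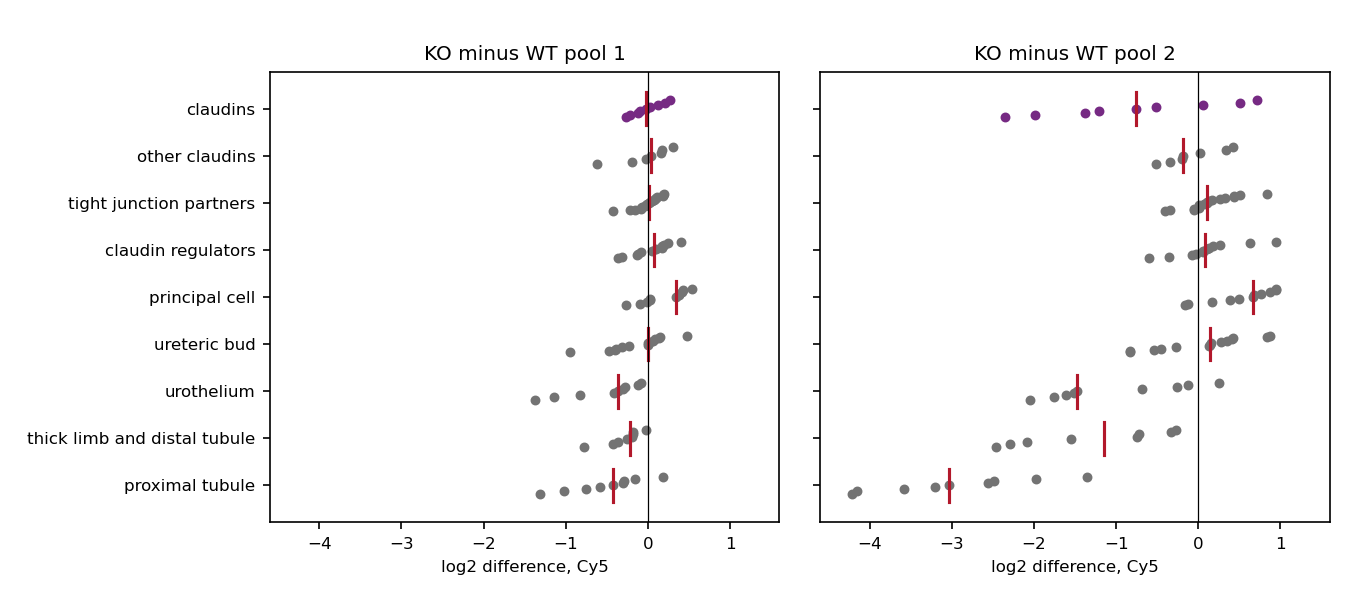
Log2 Cy5 difference of knockout from wild-type pool 1 (left) and from pool 2 (right) for each tested gene of the claudins (purple) and 8 other lists (grey), with red lines at the medians. Claudin medians are -0.03 and -0.76, proximal tubule medians -0.43 and -3.03, and tight junction partner medians 0.01 and 0.11.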

How the data were processed

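Members and gene lists were chosen with earlier results of these data known. RNA of sorted cells was read on 4 Agilent 2-colour arrays. Per the file headers, the deposited intensity of each spot and of its local background is a median over pixels from Feature Extraction 10.7.3.1, with a processed signal corrected for background and dye. The deposited log10 values are ratios of the processed signals, Cy5 over Cy3, per the file headers. The series table equalled it in 45018 of 45018 spots on each array (tolerance 1e-06), and its median was 0.173 for KO_vs_WT replicate 1 and 0 for each other array. Flags for spots well above background, saturated or non-uniform are also deposited, per the file headers, and 0 spots were saturated.

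Cy5 of all 4 arrays was corrected with normexp (offset 50), put on the log2 scale and quantile normalized. Of 43379 non-control spots on 41174 probes, flagged outliers and a dark patch of WT_self replicate 1 (876 spots, 0 claudin probes) were left out. By the same rule WT_self replicate 2 had 3 separate darker tiles (177 spots, 0 of claudins), which were kept. Through accessions 22951 probes matched a symbol of RefSeq on GRCm38.p6. Probes entered if their Cy5 passed the background flag on both arrays of a genotype, so genes detected only in pool 2 could not, and the brightest probe stood for a gene. Limma 3.58.1 in R 4.3.3 tested knockout minus wild type, two-sided, with Benjamini-Hochberg adjustment over 15893 genes and a threshold of 0.05, after a check on simulated data. In that check 20.6% of simulated log2 changes of 1 and 85.1% of those of 2 were called, so most 2-fold changes would be missed. Each wild-type pool has 1 array, so differences from it are values without a test, read by a 2-fold rule. The shared array was normalized by loess and has no dye swap. Levels over 7 channels were quantile normalized together. A gene below background has a bound, set by its own level or by the lowest level that passed the background flag, whichever was higher.

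The rule for naming took every claudin, up to 4 members of each list by the smallest unadjusted p, and the 2 genes nearest to each claudin in profile; 1 gene it chose is not reported here. Principal cell, ureteric bud, urothelial, proximal and thick limb markers stood for the cells. The lists of intercalated cell, podocyte, endothelial, stromal, erythroid and leukocyte markers had medians of -0.06, -0.29, -0.21, 0.12, 0.22 and 0.02 for knockout minus wild type, with 0 members passing. The endothelial median was -0.36 against pool 1 and -0.07 against pool 2. The number of arrays limits the precision. The 15 alternatives of the test changed the background correction, offset, normalization, filter, patch, probe rule, channels, replicate block or arrays.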

Additional observations from a re-analysis of the deposited data

How the results depend on the processing

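Over 15 alternatives of the test, limma called 0 genes and 0 claudins in all but 1. Leaving out each array in turn gave 0 to 2616 genes higher, 0 to 1926 lower, 0 to 2 claudins higher and 0 to 6 lower, the highest counts all without WT_self replicate 1, which leaves pool 2 alone in wild type. Over these fits Cldn4 ranged from -1.38 to 0.12, Cldn8 from -0.10 to 0.71 and Cldn10 from -1.99 to 0.03, their signs turning without WT_self replicate 2 (adjusted p of 0.613, 0.655 and 0.925). Fewer arrays remain in these fits. Median centring turned Cldn6 to 0.16 (adjusted p = 0.792). It also gave 3 claudins at least 2-fold higher (22.3% of genes) and 2 lower (0.988%) in knockout than pool 2 in Cy5, 2 higher (11.3%) and 2 lower (1.18%) on the shared array, and 2 higher (0.862%) and 1 lower (17.8%) in pool 2 than pool 1 in Cy5. The all-gene median lay at 0.59, 0.40 and -0.54 there. The processed signal widened dim genes, with -2.03 for Cldn2 and -1.56 for Cldn16.

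With the pool number of the titles as a replicate block, 0 genes and 0 claudins were called (smallest adjusted p = 0.875). Same-numbered arrays did not deviate together (r = 0.0371 over 15893 genes), so the numbers were not taken to pair them. A slide block could not be tried with 1 slide. Of 342 values for single claudins under another setting 14 turned sign, 10 of them under median centring. These were Cldn6 above, Cldn6 (0.39) and Cldn19 (0.13) in knockout minus pool 2, Cldn3 (0.70) on the shared array, Cldn8 (0.07) in knockout minus pool 1, Cldn3 (-0.67), Cldn6 (-0.45) and Cldn19 (-0.34) in pool 2 minus pool 1 in Cy5, and Cldn3 (-0.16) and Cldn6 (-0.12) in Cy3. Cldn10 in knockout minus pool 1 was -0.07 without KO_vs_WT replicate 1. Signal over background limits Cldn16 and Cldn2, which were not well above it in Cy3 of pool 1, and Cldn1 throughout.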
